A study of Mus musculus with 16 samples.

Results

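The transcripts of 8 genes of the EGR, NR4A and TOX families (Egr1, Egr2, Egr3, Nr4a1, Nr4a2, Nr4a3, Tox and Tox2) were followed in a pair of activated mouse CD8 T cell clones, with and without the calcineurin inhibitor cyclosporine A. The genes were taken by symbol from the platform annotation, each had 1 probe set, and they were 8 of 19938 genes measured on 16 Affymetrix whole-transcript arrays. The conventional clone is labelled cyclosporine-sensitive and the unconventional clone cyclosporine-resistant, and each kind is represented by 1 clone. Cells of all groups had been grown with IL-1a, IL-6, IL-7, IL-15, TNF-α and interferons, and were then activated by a monoclonal antibody to CD3 fixed to a surface, in medium to which no recombinant cytokine was added. The 4 groups were the conventional clone given anti-CD3 only, the conventional clone with anti-CD3 and cyclosporine A at 1 ug per ml, and the unconventional clone under the same conditions, with 4 arrays each. In the RefSeq annotation of GRCm38.p6 the NR4A genes lie at chr15:101253902-101274795 (Nr4a1), chr2:57106830-57124003 (Nr4a2) and chr4:48045078-48086447 (Nr4a3). Egr2 lies at chr10:67534469-67542188, Egr3 at chr14:70077317-70082613, Tox at chr4:6686353-6991557 and Tox2 at chr2:163203058-163324172. Unstimulated cells were not analysed here, so a level below is that of activated cells and not a measure of induction.

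EGR proteins are zinc finger factors of the immediate early class, whose genes are switched on within minutes of receptor engagement, and they are restrained by the co-repressors NAB1 and NAB2. NR4A proteins are orphan nuclear receptors that need no known hormone for their activity, and that activity was not measured here. In T cells Egr2, Egr3 and the NR4A genes are known as part of the response to calcium and calcineurin signals, and they are linked to tolerance. TOX proteins carry an HMG-box DNA-binding domain, and TOX is known for its part in the exhausted state of CD8 T cells. Cyclosporine A, bound to cyclophilin, blocks calcineurin and with it the nuclear entry of NFAT factors.

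Levels are given on the log2 scale, 1 value per probe set and array, so a difference of 1 is a 2-fold difference, and levels of different genes are not set against each other because probe sets differ in brightness. Array medians lay between 5.16 and 5.35, and arrays within a group correlated at 0.995 to 0.998 over probe sets. Of 9 measured CD8 T cell markers, 8 were above the median gene in at least 1 group. The T cell receptor component Cd3g lay between 12.16 and 12.74 in the group means, and Cd2, an adhesion receptor of T cells, lay near background at 3.99 to 4.25. The coreceptor gene Cd8a stood at 12.50 and 11.92 in the conventional clone without and with the drug, and at 10.31 and 8.56 in the unconventional clone. Cd4 was low in every group (4.21 to 4.32). Of 4 measured markers of CD4 T cells, 1 was above the median gene, the CD4 lineage factor gene Zbtb7b, at 6.2 to 7.1 in the group means. Markers of B cells averaged 4.62 in the conventional clone given anti-CD3 only and 3.92 to 4.15 elsewhere, with 1 of 6 above the median gene, and those of macrophages and dendritic cells averaged 4.45 to 4.57, with 1 of 9 above it. In bulk RNA, fewer cells that make a transcript and less of it per cell cannot be told apart. Nothing in the labels says that replicates came from separate cultures, so the p-values reflect only how much these samples varied, and that variation may be technical.

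**Figure D1:**
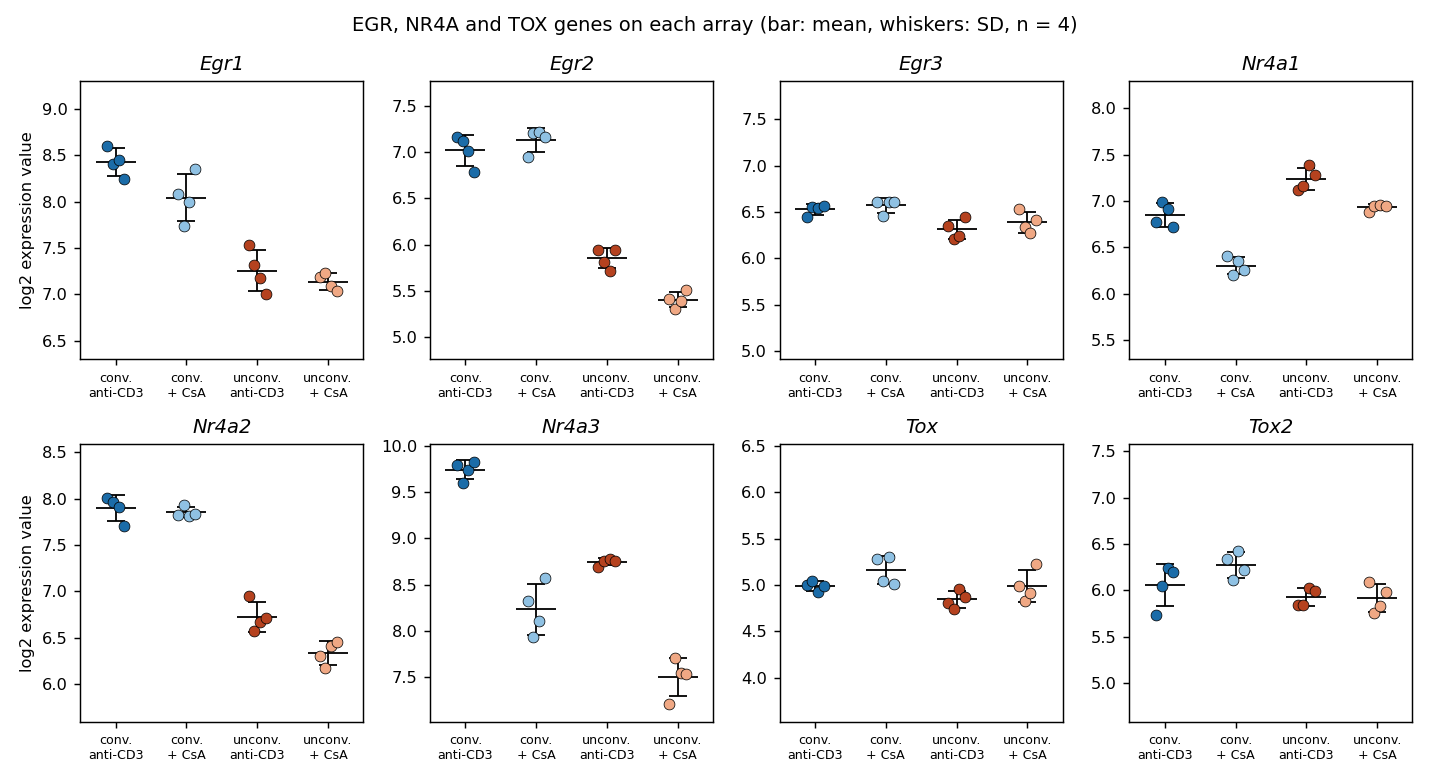
Log2 expression values (y axis, each panel spanning 3 units) of the 8 genes on every array, by group (x axis, conv. for conventional, unconv. for unconventional, CsA for cyclosporine A). Points are arrays, bars are means and whiskers are SD with n = 4. Nr4a3 is lower with the drug in both clones, and Egr1, Egr2 and Nr4a2 are lower in the unconventional clone than in the conventional clone whatever the treatment.

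The first question was how far these genes changed with cyclosporine A in each clone. Of the 8 genes, Nr4a3 had the largest change in each clone. With cyclosporine A, Nr4a3 fell 2.84-fold in the conventional and 2.37-fold in the unconventional clone, Nr4a1 fell by less in both, and Nr4a2 fell in the unconventional clone. Egr1 fell in the conventional clone and Egr2 in the unconventional clone, while Egr3, Tox and Tox2 passed the test in neither.

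Nr4a3, the NR4A receptor also called NOR1, measured 9.79, 9.60, 9.74 and 9.83 on the 4 arrays of the conventional clone given anti-CD3 only and 8.32, 7.94, 8.11 and 8.57 with the drug. The unconventional clone gave 8.69, 8.76, 8.78 and 8.76 without and 7.21, 7.70, 7.54 and 7.54 with the drug. In each clone every treated array lay below every untreated array. The change was -1.51 (SE 0.11, 2.84-fold lower, adjusted p = 2.05e-09) in the conventional clone and -1.25 (SE 0.11, 2.37-fold lower, adjusted p = 7.60e-08) in the unconventional clone. Of the 8 genes it alone fell at least 2-fold in each clone. The effects differed between the clones by 0.26 (95% interval -0.08 to 0.60, adjusted p = 0.364), a difference that did not pass the test. Nr4a3 was still well above the median gene under the drug, at 8.23 ± 0.27 in the conventional and 7.50 ± 0.21 in the unconventional clone (SD, n = 4), where the median over genes was 5.40 to 5.47.

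Nr4a1, which encodes Nur77 and is widely used as a reporter of antigen receptor signalling, gave 6.78, 6.99, 6.92 and 6.72 without the drug in the conventional clone and 6.41, 6.21, 6.35 and 6.25 with it. The unconventional clone gave values of 7.12, 7.17, 7.38 and 7.28 without and 6.88, 6.94, 6.96 and 6.95 with cyclosporine A. The treated and untreated arrays did not overlap in either clone, although the shifts were small: -0.55 (SE 0.08, 1.46-fold lower, adjusted p = 8.67e-06) in the conventional and -0.30 (SE 0.08, 1.24-fold lower, adjusted p = 0.00491) in the unconventional clone. The difference of the effects, 0.24 (95% interval 0.01 to 0.47), had an adjusted p of 0.162.

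Nr4a2, which encodes Nurr1, was 8.01, 7.97, 7.91 and 7.70 in the conventional clone without the drug and 7.83, 7.93, 7.82 and 7.83 with it, so the groups overlapped and the change of -0.04 (95% interval -0.23 to 0.14, adjusted p = 0.775) did not pass the test. Its unconventional arrays went from 6.95, 6.57, 6.67 and 6.71 without to 6.30, 6.17, 6.41 and 6.45 with the drug, with no overlap. There the change was -0.39 (SE 0.09, 1.31-fold lower, adjusted p = 0.00205). The effects differed by -0.35 (SE 0.12) at an adjusted p of 0.0685, which missed the threshold. That difference was called without replicate 2 of the unconventional clone given anti-CD3 only (-0.40, adjusted p = 0.0403), after quantile normalization (-0.39, adjusted p = 0.0197) and among brighter genes alone (-0.35, adjusted p = 0.0381).

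All 3 NR4A genes were called lower with the drug in the unconventional clone, and Nr4a1 and Nr4a3 in the conventional one. The DNA before their annotated starts is shown as a description, and its relation to these changes was not tested. RefSeq promoter sequences (GRCm38.p6) matched 5 of the 8 genes, Egr2, Nr4a1, Nr4a2, Nr4a3 and Tox2, with 5 windows each for Egr2 and Tox2 and 1 for each of the others, and the 250 bases before a start were searched. The letters TGACG, the core of the cyclic AMP response element bound by CREB family factors, stood in 4 places in each of the 3 NR4A windows, counting both strands, so that CGTCA is the same core read on the opposite strand. Of 32841 mouse windows of this length, 17.8% held the core at least in 1 place and 45, or 0.137%, in at least 4 places, a number of places set after the matches were seen. The 45 include the NR4A windows themselves, and the windows were not matched for base composition, so the share is a description only. In the lines below capitals mark the core. The windows are chr15:101266596-101266845 on the plus strand for Nr4a1 and chr2:57124004-57124253 on the minus strand for Nr4a2. That of Nr4a1 lies inside the annotated gene, before an internal start. For Nr4a3, whose annotated gene begins inside its window, 30 bases with 2 of the 4 places are given, chr4:48045072-48045101 on the plus strand.
Nr4a1: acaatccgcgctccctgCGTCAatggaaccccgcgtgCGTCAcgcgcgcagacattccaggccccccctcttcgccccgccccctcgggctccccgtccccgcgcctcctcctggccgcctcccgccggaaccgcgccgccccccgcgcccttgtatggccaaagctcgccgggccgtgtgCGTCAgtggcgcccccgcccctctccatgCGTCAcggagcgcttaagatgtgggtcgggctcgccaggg
Nr4a2: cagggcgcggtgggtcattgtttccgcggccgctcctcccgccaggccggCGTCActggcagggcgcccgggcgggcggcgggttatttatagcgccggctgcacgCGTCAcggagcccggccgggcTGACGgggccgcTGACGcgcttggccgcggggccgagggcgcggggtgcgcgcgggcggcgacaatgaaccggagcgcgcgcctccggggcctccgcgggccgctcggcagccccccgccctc
Nr4a3: ggTGACGtagcgtcccatgtCGTCAcattg

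Other motifs were sparser in these windows. The EGR site GCGNGGGCG, found in 4.70% of all windows, stood in 1 place each in the Nr4a1 and Nr4a2 windows. The NFAT core GGAAA, which 55.6% of windows hold, was found in 1 place before Nr4a2 and was not among the letters of the Nr4a1 and Nr4a3 windows. A MEF2 site, present in 2.92% of windows, was matched before Nr4a2. No match was found in any NR4A window for the whole element TGACGTCA (1.55% of windows), of which TGACG is a part, for the CArG box (1.47%), for the NR4A site AAAGGTCA (1.34%) or for the AP-1 site TGANTCA (6.75%). A match describes letters in a window and shows no binding.

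Among the EGR genes the drug's effects were small, and they differed by clone for Egr2. Egr1, the member most directly driven by MAP kinase signals, measured 8.60, 8.41, 8.45 and 8.25 in the conventional clone without and 8.08, 7.73, 8.0 and 8.35 with cyclosporine A. The groups overlapped, and the change was -0.39 (SE 0.12, 1.31-fold lower, adjusted p = 0.0161). The call was lost without replicate 1 of the untreated arrays (-0.33, adjusted p = 0.0592) or without replicate 2 of the treated arrays (-0.28, adjusted p = 0.0695). In the unconventional clone, values of 7.53, 7.31, 7.18 and 7.0 without and 7.19, 7.23, 7.09 and 7.04 with the drug overlapped, at a change of -0.12 (95% interval -0.37 to 0.13, adjusted p = 0.588). The effects differed between the clones by 0.27 (95% interval -0.08 to 0.62, adjusted p = 0.369).

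Egr2, a zinc finger factor tied to T cell tolerance, was the 1 gene of the 8 for which the drug's effect differed between the clones by the test. In the conventional clone it stood at 7.16, 7.12, 7.01 and 6.78 without and at 6.95, 7.21, 7.22 and 7.16 with the drug, a change of 0.12 (95% interval -0.07 to 0.30, adjusted p = 0.392) with overlapping groups. In the unconventional clone it went from 5.94, 5.82, 5.72 and 5.95 to 5.42, 5.31, 5.40 and 5.51. There all treated arrays lay below all untreated ones, and the change was -0.45 (SE 0.09, 1.36-fold lower, adjusted p = 0.000637). The difference of the effects was -0.56 (SE 0.13, 95% interval -0.83 to -0.30, adjusted p = 0.00316), and it kept its call in every alternative run, with adjusted p-values up to 0.00885. The level reached under the drug in this clone, 5.41 ± 0.08 (SD, n = 4), was at the median gene, where the arrays compress differences.

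A stretch of 30 bases before 1 of the annotated Egr2 starts, chr10:67537793-67537822 on the plus strand in GRCm38.p6, is shown because it holds a CArG box, the element bound by serum response factor, beside the CREB core. Both are in capitals, and the window was picked from the 5 of Egr2 for these matches. The stretch lies inside the annotated gene, before an internal start. Both motifs, anywhere in the 250 bases, were found in 56 of 32841 windows, or 0.171%. Overlapping Egr2 windows are among the 56, and because the window was picked for its matches this share tests nothing.
Egr2: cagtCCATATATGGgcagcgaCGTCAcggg

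Egr3, which shares functions with Egr2 in T cells, did not pass the test for the drug. Its arrays lay between 6.44 and 6.61 in the conventional clone over both treatments, and between 6.21 and 6.53 in the unconventional clone. The changes were 0.04 (95% interval -0.11 to 0.20, adjusted p = 0.730) and 0.08 (95% interval -0.08 to 0.23, adjusted p = 0.569). Of the relatives outside the 8 genes, Egr4 changed by 0.02 and 0.19 and was called in neither clone. The co-repressor Nab1 rose in the conventional clone by 0.43 (SE 0.08, adjusted p = 0.000153), reaching 9.85 ± 0.06 where untreated arrays averaged 9.42 ± 0.05 (SD, n = 4), and Nab2 rose by 0.25 (SE 0.07, adjusted p = 0.00627). In the unconventional clone Nab1 changed by 0.07 and Nab2 by 0.08 and neither was called. The difference between the clones was called for Nab1 (-0.36, SE 0.11, adjusted p = 0.0274) and not for Nab2 (-0.17, adjusted p = 0.307).

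The TOX genes showed no called response. Tox lay between 4.74 and 5.30 on all 16 arrays, below the median gene in each group, so a transcript that is absent or scarce cannot be told apart from background here. Its changes were 0.17 (95% interval -0.01 to 0.36) and 0.14 (95% interval -0.04 to 0.33). Tox2, a relative linked to follicular helper T cells, lay between 5.74 and 6.42 in the conventional clone and between 5.76 and 6.09 in the unconventional clone. It changed by 0.22 (adjusted p = 0.139) and -0.01 (adjusted p = 0.965). Tox3 stood near background, at group means of 3.86 to 4.23, and the ubiquitously expressed Tox4 changed by 0.18 (adjusted p = 0.0697) and 0.01 (adjusted p = 0.939).

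In counts, 3 of the 8 genes were called lower and 0 higher in the conventional clone, where 31.4% of all 19938 genes were called (15.9% higher and 15.5% lower). In the unconventional clone 4 were lower and 0 higher, against 24.9% of all genes called (12.6% higher and 12.3% lower, or 2518 and 2452 genes). After median centring these were 1931 higher and 2684 lower. Groups did not overlap for 2 of the 8 genes in the conventional and 4 in the unconventional clone, against 30.5% and 27.2% of all genes. The share called in the conventional clone was thus near that of all genes. The median change over the 8 genes was -0.00 and -0.21, and over all genes 0.02 in each clone. The difference of effects was called for 1 of the 8 genes (12.5%) and for 16.3% of all genes (8.51% higher and 7.78% lower).

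**Figure D2:**
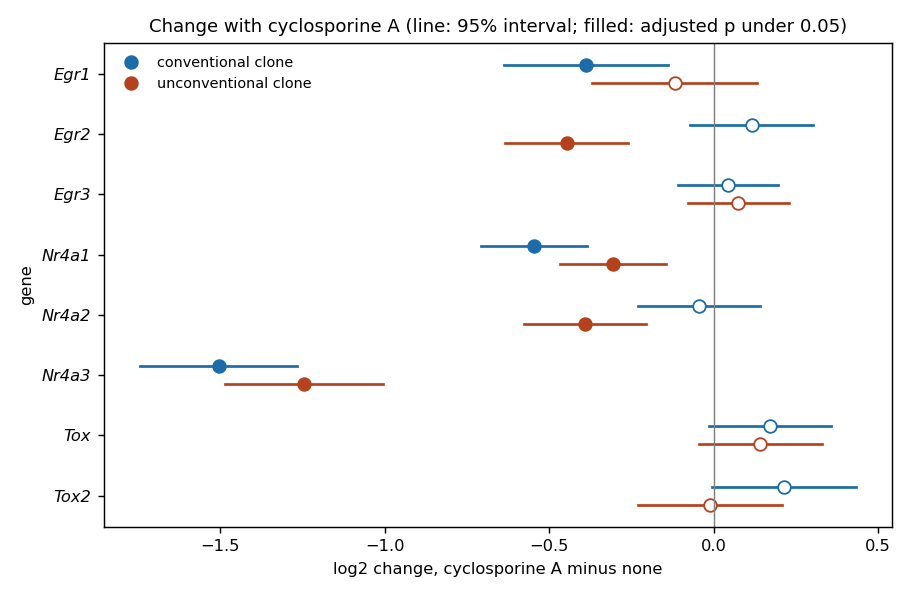
Change with cyclosporine A in log2 units (x axis, treated minus untreated) for each gene (y axis) in the conventional and the unconventional clone. Points are limma estimates from 4 arrays per group, lines are 95% intervals, and filled points have an adjusted p under 0.05. Nr4a3 stands furthest from 0, at -1.51 and -1.25, and Egr2 has its estimates on opposite sides of 0, at 0.12 and -0.45.

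The second question was how the clones differed in these genes when activated. Most of the 8 were lower in the unconventional clone, and Nr4a1 was higher. Under anti-CD3 only, Egr1 (8.43 ± 0.15 against 7.25 ± 0.22), Egr2 (7.02 ± 0.17 against 5.86 ± 0.11) and Nr4a2 (7.90 ± 0.14 against 6.72 ± 0.16; SD, n = 4) were each more than 2-fold lower in the unconventional clone. The differences were -1.17 (SE 0.12, 2.26-fold, adjusted p = 8.74e-08) for Egr1, -1.16 (SE 0.09, 2.24-fold, adjusted p = 1.29e-09) for Egr2 and -1.17 (SE 0.09, 2.25-fold, adjusted p = 1.06e-09) for Nr4a2. Nr4a3 differed by -0.99 (SE 0.11, 1.99-fold lower, adjusted p = 4.98e-07). Nr4a1 went the other way, at 0.39 (SE 0.08, 1.31-fold higher, adjusted p = 0.000347). For these 5 genes no array of one clone overlapped with the other.

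Egr3 was lower by a small amount, at -0.22 (SE 0.07, adjusted p = 0.0227). Its call was lost in 6 of 25 alternatives, among them median centring (-0.15, adjusted p = 0.125) and the fits without replicate 2 or 4 of the conventional arrays or replicate 2 or 3 of the unconventional arrays given anti-CD3 only (-0.21 to -0.18). Tox (-0.14, adjusted p = 0.211) and Tox2 (-0.13, adjusted p = 0.342) were not called. Of the relatives, Egr4 was lower by 0.42 on the log2 scale (-0.42, adjusted p = 0.00611), Tox3, near background in each group, differed by -0.36 (adjusted p = 0.00674), and Tox4 was higher by 0.62 (adjusted p = 8.01e-07). Nab1 (0.05) and Nab2 (-0.09) were not called.

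With cyclosporine A the same directions were seen. Egr2 was 3.31-fold lower in the unconventional clone (-1.73, SE 0.09, adjusted p = 2.11e-12), Nr4a2 2.87-fold lower (-1.52, SE 0.09, adjusted p = 1.41e-11), Egr1 1.87-fold lower (-0.91, SE 0.12, adjusted p = 2.36e-06) and Nr4a3 1.66-fold lower (-0.73, SE 0.11, adjusted p = 1.99e-05). Nr4a1 was 1.55-fold higher (0.63, SE 0.08, adjusted p = 8.47e-07). Tox2 was lower here (-0.36, SE 0.10, adjusted p = 0.00878), and its arrays did not overlap between the clones. Egr3 passed narrowly (-0.18, adjusted p = 0.0482) and lost the call in 14 of 25 alternatives, with adjusted p-values up to 0.151. These included the fits without replicate 1, 3 or 4 of the conventional or replicate 2, 3 or 4 of the unconventional arrays with the drug, and without replicate 2, 3 or 4 of the conventional or 3 of the unconventional arrays given anti-CD3 only (-0.19 to -0.15). Tox was not called (-0.17, adjusted p = 0.125). Of the relatives, Nab1 (-0.31, adjusted p = 0.00257) and Nab2 (-0.26, adjusted p = 0.00396) were lower and Tox4 was higher (0.45, adjusted p = 3.63e-05), while Egr4 (-0.25) and Tox3 (-0.22) were not called.

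Under anti-CD3 only 6 of the 8 genes were called, 5 lower and 1 higher, beside 42% of all genes (20.3% higher and 21.7% lower, or 4048 and 4328 genes; after median centring 4418 higher and 2952 lower). With the drug 7 were called, 6 lower and 1 higher, beside 44.2% of all genes (21.3% higher and 23% lower, or 4240 and 4581 genes, and after median centring 4374 higher and 3562 lower). Groups did not overlap for 6 genes in each comparison, against 38.6% and 42.2% of all genes. The median difference over the 8 genes was -0.60 and -0.54, and over all genes -0.07 and -0.08. The clone comparisons use the same arrays as the drug comparisons, so they are no separate evidence for the values above.

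**Figure D3:**
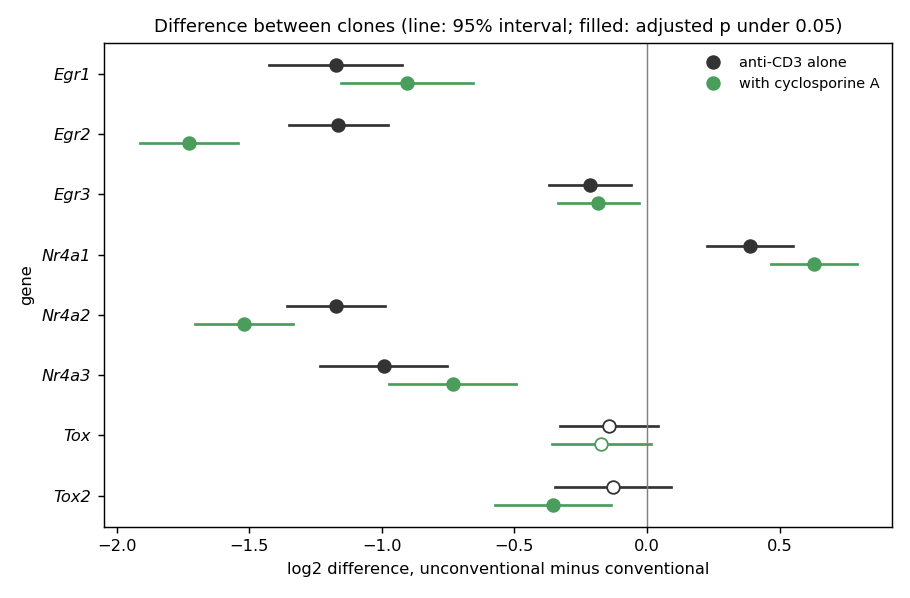
Difference between the clones in log2 units (x axis, unconventional minus conventional) for each gene (y axis), given anti-CD3 only and with cyclosporine A. Points are limma estimates from 4 arrays per group, lines are 95% intervals, and filled points have an adjusted p under 0.05. Nr4a1 lies to the right of 0, at 0.39 and 0.63, while Egr1, Egr2, Nr4a2 and Nr4a3 lie to the left, between -1.73 and -0.73.

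Taking clone and drug as 4 conditions, the order of the group means was not the same for each gene. Nr4a3 was highest in the conventional clone given anti-CD3 only, followed by the unconventional clone given anti-CD3 only, and next by the conventional and the unconventional clone with the drug, and no neighbours in this order overlapped. Nr4a1 was highest in the unconventional clone given anti-CD3 only and lowest in the conventional clone with the drug. Between these, the unconventional clone with the drug (6.93 ± 0.03) and the conventional clone without it (6.85 ± 0.13; SD, n = 4) overlapped. For Egr2 and Nr4a2 the conventional groups overlapped at the top, and both unconventional groups lay apart below them.

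Egr2 and Nr4a2 ran closely alike. Over the 16 arrays, which form 4 groups, their values correlated at r = 0.990, and each was among the 3 genes most like the other by Pearson correlation, out of 3367 genes whose group means spanned at least 1 log2 unit. After the group means were taken off, the correlation was 0.704, the highest of the 28 pairs among the 8 genes, which ranged from -0.344 upward and had 2 pairs above 0.5. These points share the array and its normalization, and the values are descriptions over 16 arrays. The metabolic enzyme gene Bcat1 (r = 0.991) and the splicing regulator gene Hnrnpll (0.985) were the others most like Egr2, and the bromodomain gene Brd2 (0.986) and Bcat1 (0.984) those most like Nr4a2.

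**Figure D4:**
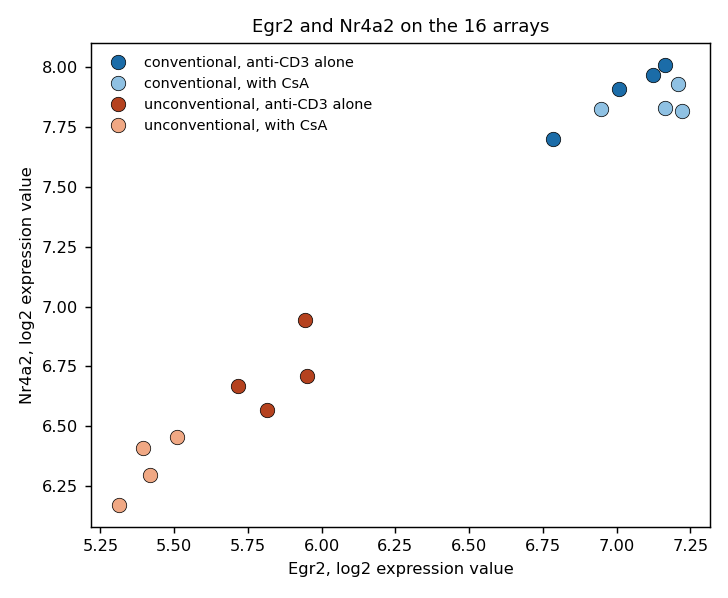
Log2 expression values of Egr2 (x axis) and Nr4a2 (y axis) on the 16 arrays, coloured by group. Each point is an array, and the unconventional arrays with the drug lie lowest on both axes while the groups of the conventional clone intermingle at the top, at Egr2 values of 6.78 to 7.22.

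The genes whose pattern was most like Nr4a3 were the casein gene Csn1s1 (r = 0.978), the IL-4 receptor chain Il4ra (0.977) and Erc1 (0.977). Il4ra fell from 11.28 to 9.92 in the conventional and from 10.49 to 9.10 in the unconventional clone. Nearest to Nr4a1 were Ube2c (0.982), a ubiquitin-conjugating enzyme of mitotic exit, the E2F partner Tfdp1 (0.975) and the ribosome biogenesis gene Tcof1 (0.974). Nearest to Egr1 were Aig1 (0.964), Ydjc (0.964) and Lilr4b (0.960). The 3 genes Egr3, Tox and Tox2 had group means within 0.5 of each other and were not matched.

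The wider immediate early class split in both directions with cyclosporine A. Of 25 other immediate early genes, 9 fell and 8 rose in the conventional clone, and 10 fell and 6 rose in the unconventional clone, with a median change of 0.05 in each. Over all genes, against which this and the lists that follow are to be read, 31.4% were called in the conventional clone (15.9% higher and 15.5% lower) and 24.9% in the unconventional clone (12.6% higher and 12.3% lower), with a median change of 0.02 in each. The stress factor Atf3 fell most, from 10.11 to 7.17 (-2.94, SE 0.11) and from 8.57 to 6.56 (-2.01, SE 0.11). The MAP kinase phosphatase Dusp1 rose by 2.01 and 1.31, and the AP-1 subunit Fosb by 1.73 and 1.21. Fos, like Egr1, was called lower in the conventional clone (-0.39) and not in the unconventional clone (0.06). The anti-proliferative gene Btg2 rose by 0.57 and 1.86. As with Egr1, Egr2 and Nr4a2, most of these genes were lower in the unconventional clone given anti-CD3 only, 19 of 25 against 1 higher, with a median difference of -0.84, beside 21.7% of all genes lower, 20.3% higher and a median of -0.07.

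**Figure D5:**
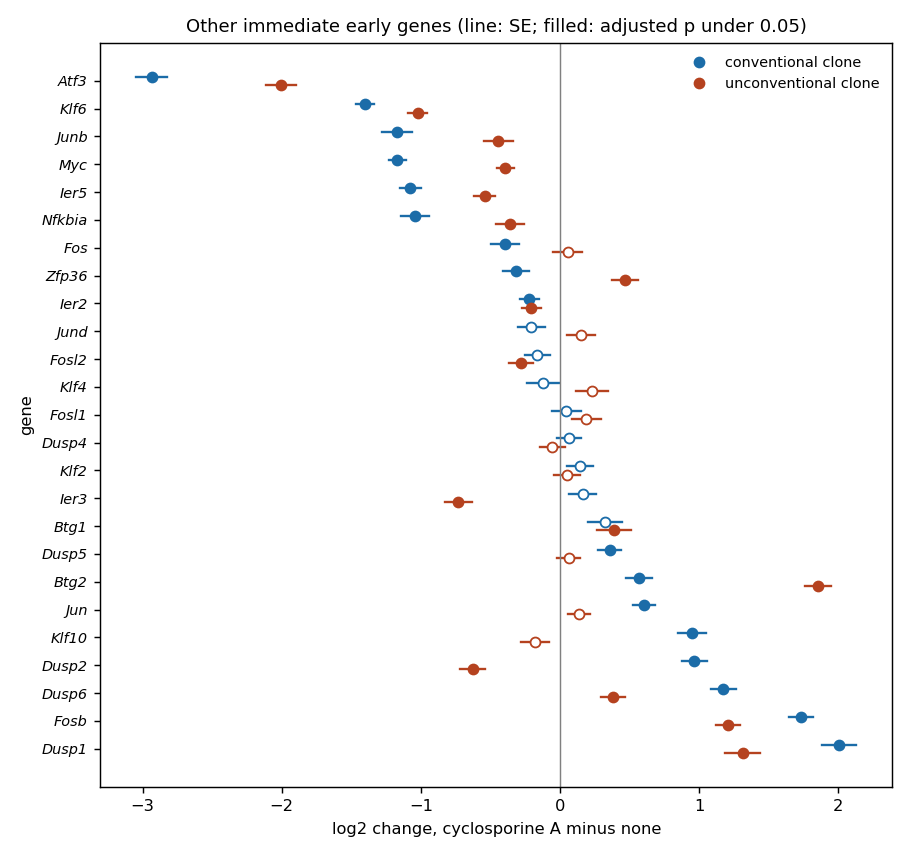
Change with cyclosporine A in log2 units (x axis) for 25 other immediate early genes (y axis, ordered by the change in the conventional clone) in both clones. Points are limma estimates from 4 arrays per group, lines are 1 SE to each side, and filled points have an adjusted p under 0.05. Changes run from -2.94 for Atf3 to 2.01 for Dusp1.

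Genes that feed into EGR and NR4A transcription were taken as 3 lists. Of 12 serum response and CREB factors, 3 fell and 2 rose in the conventional clone (median -0.07), and 1 fell and 4 rose in the unconventional clone (median 0.00). Crem, a CREB family gene with activating and repressing forms, fell from 8.29 to 7.30 in the conventional clone (-0.99, SE 0.09, adjusted p = 1.35e-08) and stood at 6.68 in the unconventional clone with or without the drug. The serum response co-activator gene Mrtfa rose by 0.97 and 0.55. The ETS factor gene Elk3 rose by 0.58 in the conventional clone, and its unconventional means were also higher with the drug (9.51 without, 9.86 with it). Elk1 (0.50) and Creb1 (0.43) rose in the unconventional clone. In the conventional clone Elk1 went from 7.14 to 7.25 and Creb1 from 9.41 to 9.16.

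MEF2 factors take part in the control of Nr4a1 in T cells and are held in check by class IIa histone deacetylases. Of 8 genes in this list, 4 rose and 3 fell in the conventional clone (median 0.09), and 5 rose and 0 fell in the unconventional clone (median 0.57). The deacetylase gene Hdac4 rose in both (0.99 and 0.82). Mef2d (-0.53) and Hdac9 (-0.75) fell in the conventional clone, and Mef2d was at 9.17 and 9.15 in the unconventional clone. Hdac7 rose in the unconventional clone (0.79), and its conventional means were 6.84 without and 7.10 with the drug. Mef2c rose in the unconventional clone (1.03, from 4.34 to 5.37), where both means were below the median gene. Mef2c was at 4.26 and 4.19 in the conventional clone and Hdac9 at 4.36 and 4.36 in the unconventional clone, below the median gene, where a fall could not be seen.

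Of 11 calcineurin and NFAT genes, 3 rose and 3 fell in each clone (medians 0.10 and 0.00), beside 31.4% of all genes called in the conventional and 24.9% in the unconventional clone. The calcineurin catalytic subunit gene Ppp3ca rose by 1.10 and 0.73, and Nfat5, an NFAT relative that does not depend on calcineurin, changed by -0.57 and -0.89. Nfatc2 rose in the conventional clone from 7.18 to 8.55 (1.38, SE 0.10) and was at 7.33 and 7.29 in the unconventional clone. Nfatc1 fell in the unconventional clone (-0.40, from 6.18 to 5.78). In the conventional clone its means were likewise lower with the drug, at 6.81 without and 6.44 with it. Beside these, the calcineurin-dependent cytokine genes Ifng (-3.43 and -5.28) and Il2 (-1.29 and -1.97) fell in both clones. With the drug Il2 was at 4.39 and 4.29, below the median gene, so its true fall may be larger than measured. Rcan1, a feedback inhibitor of calcineurin and a known NFAT target, was not called in either (-0.13, adjusted p = 0.390, and 0.12, adjusted p = 0.449). Its means were 6.23 and 6.11 in the conventional clone. In the unconventional clone they were 5.17 and 5.30, below the median gene, where a fall could hardly be seen.

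Genes named as targets of EGR factors or as part of anergy included 8 falls and 4 rises among 15 in the conventional clone (median -0.19) and 7 falls and 3 rises in the unconventional clone (median -0.10). The semaphorin gene Sema7a (-1.38 and -2.33) and the adhesion receptor gene Crtam (-1.04 and -1.65) fell in both. With the drug Sema7a (5.23 and 5.39) and, in the unconventional clone, Crtam (4.65) were below the median gene. Ndrg1, known in mice as an anergy gene driven by Egr2, went from 9.60 to 7.64 in the conventional clone (-1.96, SE 0.22), and its means in the unconventional clone were 10.66 without and 10.02 with the drug. The ubiquitin ligase gene Rnf128, also called Grail, rose by 0.70 in the unconventional clone, from 6.82 to 7.52, and was at 7.04 and 7.07 in the conventional clone.

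Among 19 receptors and factors of the exhaustion programme, in which NR4A and TOX proteins take part, 5 fell and 4 rose in the conventional clone (median 0.04) and 5 fell and 9 rose in the unconventional clone (median 0.18). The inhibitory receptor genes Ctla4 (-4.01 and -1.99) and Tigit (-2.56 and -2.17) fell in both clones. Bcl6, a repressor of effector fates, rose by 2.29 in the conventional clone, from 5.62 to 7.91. It was also higher with the drug in the unconventional clone, at means of 4.81 without and 6.10 with it. Cd200 fell in the unconventional clone (-2.47, SE 0.14), from 9.82 to 7.35, and was near background in the conventional clone (3.71 and 3.97). Tox, a driver of that programme in mice, stayed below the median gene throughout.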

How the data were processed

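RNA of 16 samples, 4 in each of 4 groups, was measured on Affymetrix arrays. The authors deposited log2 values, 1 per probe set and array. GCOS, Partek 6.2 and RMA were used, per the submitters' processing notes, with no role or order given. That the scale is log2 was read from the range, 2.08 to 14.55. Array medians ran from 5.16 to 5.35, and a further quantile normalization moved the median difference between the clones given anti-CD3 only from -0.07 to -0.02, so the arrays did not share 1 distribution. Differences of dim genes are compressed on arrays. The genome build used by the authors is not given in the sources used here.

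Of 28853 probe sets, 21789 had 1 gene symbol, 1621 several and 5443 none here. An Entrez ID matched 99.6% of those with 1 symbol to GRCm38.p6, and 0 symbols changed. The brightest probe set per gene by mean was used, which left 19938 genes. All 16 arrays entered a linear model of the 4 groups (limma 3.58.1, R 4.3.3), with 12 residual and 18.8 moderated degrees of freedom. Tests were two-sided, adjusted over all genes by Benjamini-Hochberg, and called under 0.05. No depth exists for arrays, and their number limits the precision.

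The members, lists and rules were chosen with earlier results of these data known. Named genes were the 8 members, their family relatives, up to 3 called genes with the largest change per list and drug contrast, the 3 most like each member whose group means spanned 0.5, and Il2, Ifng and Rcan1. Named outside this rule, after their values were seen, were Fos, Cd2, Cd3g, Cd8a, Cd4, Zbtb7b and the markers in the closing section. The steps were tested on simulated data. Alternatives were leaving out each array, a replicate block, median centring, quantile and cyclic loess normalization, brighter genes only, mean of probe sets, limma-trend, the compared groups alone and array weights. Background correction and scan batches could not be varied from these values.

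Replicate numbers are shared between groups. Over 24 same-numbered pairs, deviations from group means correlated at -0.137 to 0.284 (median 0.036), with 3 pairs above 0.1. Over 72 pairs with different numbers they correlated at -0.357 to 0.356 (median -0.014), with 7 above 0.1. The numbers were not taken to pair the samples, although these values do not exclude a weak pairing.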

Additional observations from a re-analysis of the deposited data

Results flagged for a closer look

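An array stood apart from the other 3 of its group in 5 of 52 groups looked at, where chance gives about 1 in 20. Among the 8 genes this was Egr3 at 6.45 and Nr4a2 at 7.93, both in replicate 2 of the conventional clone with cyclosporine A, low for Egr3 and high for Nr4a2. Among relatives it was Egr4 at 6.19 and Nab1 at 9.73, both high in replicate 1 of the unconventional clone given anti-CD3 only, and Tox4 at 9.34 in replicate 3 of the conventional clone with the drug.

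The drug's effect differed between the clones, by the test of the difference itself, for Egr2 (-0.56, unconventional minus conventional) and Nab1 (-0.36) and, among the comparators, for Ifng (-1.85). Over all genes, against which the counts that follow are to be read, the difference was called for 16.3% (8.51% higher and 7.78% lower). It was called for 3 of 12 serum response and CREB factors: Crem (0.98), Creb1 (0.68) and Elk1 (0.39). In the MEF2 list it was called for 5 of 8 genes, the largest being Mef2c (1.10), Hdac9 (0.74) and Hdac7 (0.54). Of 11 calcineurin and NFAT genes it was called for 1, Nfatc2 (-1.41). Mef2c in the conventional clone (4.26 and 4.19) and Hdac9 in the unconventional clone (4.36 and 4.36) were below the median gene, so a fall there could not be seen and the difference of effects is limited by it. Of 25 other immediate early genes the difference was called for 16, 9 with a higher and 7 with a lower effect in the unconventional clone. The 3 largest were those of Dusp2 (-1.59), Btg2 (1.29) and Klf10 (-1.13). In the target list 4 of 15 genes were called with a higher and 3 with a lower effect, the largest being Ndrg1 (1.32), Sema7a (-0.95) and Rnf128 (0.67). In the exhaustion list 7 of 19 were higher and 4 lower, the largest being Cd200 (-2.74), Ctla4 (2.02) and Entpd1 (1.51), an ectonucleotidase gene. Cd200 was near background in the conventional clone (3.71 and 3.97), where it could not fall, so its difference of effects does not compare responses of the clones.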

How the results depend on the processing

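Of the values of members under an alternative, 948 kept direction and side of the threshold, 22 lost the call, 4 gained it and 13 turned sign. The count of members called for the difference of effects was 2 in place of 1 after quantile normalization, among brighter genes only (fewer genes tested, Tox left out), and without replicate 2 of the unconventional clone given anti-CD3 only (1 to 2 over the fits that leave out 1 array); Nr4a2 was the gene added. The lost calls were those of Egr3 between the clones and of Egr1 in the conventional clone. The sign turned for values that were not called in any fit: the drug's effect on Egr3 in the conventional clone (-0.0053 after cyclic loess), on Tox2 in the unconventional clone (-0.070 to 0.042 over the fits that leave out 1 array), and the difference of effects for Egr3 (-0.042 after quantile normalization, -0.016 to 0.075 leaving out 1 array) and Tox (-0.11 to 0.026 leaving out 1 array). Tox was called lower in the unconventional clone with the drug without replicate 4 of that group (-0.25, adjusted p = 0.0233). The causes were not tested. With the replicate number as a block the members called were 3, 4, 1, 6 and 7 in the 5 comparisons, as without it. By deviations from group means, the closest array of another group carried the same replicate number for 7 of 16 arrays. Signal near background limits Tox and Tox3, and no other scaling moved the median of all genes by over 0.1.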

Other observations

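Among markers of other cell types, 3 single genes had levels that varied widely between the groups. Ebf1, a B cell factor, stood at 7.80 in the conventional clone given anti-CD3 only, 4.93 with cyclosporine A, and 3.94 and 3.80 in the unconventional clone, and the B cell marker Ms4a1 lay at 3.09 to 3.20 over the 4 groups. Of the others, Cd79b lay at 4.91 to 5.16 and Pax5 at 4.49 to 4.67. Cdh1, which encodes E-cadherin, was at 5.03 and 5.05 in the conventional clone and at 7.12 and 9.22 in the unconventional clone without and with the drug, while Epcam lay at 4.28 to 4.30. The 8 fibroblast and epithelium markers, of which 4 were above the median gene, averaged 5.17 and 5.24 in the conventional and 5.35 and 5.65 in the unconventional clone. Cd68, a lysosomal protein gene, ran from 7.26 to 9.13 over the 4 groups. These genes were named after their values were seen, and their relation to the EGR, NR4A and TOX values was not tested.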
